A study of Mus musculus with 24 samples.

Results

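Polysome-associated mRNA was compared with total mRNA in KP organoids that received vehicle, to find which mRNAs were well or poorly loaded with ribosomes in untreated tumour cells. The comparison used 6 of the 24 libraries of the series, 3 of polysome-associated and 3 of total mRNA, chosen by their labels and paired by the replicate number that both libraries of a lysate carry. KP organoids are cultures of pancreatic ductal adenocarcinoma cells from mice in which Pdx1-Cre, active in pancreatic progenitors, switches on engineered tumour alleles, p53 R172H among them, and they were grown in Matrigel. The other groups of the series are N organoids, from normal mouse pancreas, with vehicle, and both organoid types with CR1-31-b, an inhibitor of the RNA helicase eIF4A. Vehicle was DMSO, which the labels call Control, and cells were exposed to cycloheximide before lysis. Lysates were spun through sucrose gradients, the fractions with 3 or more ribosomes were pooled as polysome-associated mRNA, and a part of the lysate kept back before the gradient gave total mRNA. The labels do not say whether the replicates came from separate cultures or mice, so the p-values measure only the spread between these samples.

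Ribosomes load onto an mRNA one after another, and an mRNA that is initiated often carries many of them and sinks deep into a sucrose gradient. Loading is controlled mainly at initiation, by the eIF4F complex that binds the cap and unwinds the leader, and for some mRNAs by proteins that sit on the leader and block it. Ferritin mRNAs, which iron regulatory proteins repress, and mRNAs with a terminal oligopyrimidine (TOP) start, which encode the translation machinery and follow mTOR signalling, are the classical cases. A short coding sequence has room for few ribosomes, so its mRNA can be initiated often and still be light.

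The 6 libraries held between 86264727 and 193500321 counted reads, so that sampling error was small for all but the weakest genes. Of 12 ductal markers measured, 11 reached at least 1 CPM (counts scaled to the same library total) in all 6 libraries, and their summed level was 6054 to 10514 CPM. The summed levels of acinar (3.55 to 4.84 CPM), islet (up to 0.320), fibroblast (up to 0.301) and endothelial markers (up to 0.489) were far lower. The polysome library of replicate 3 stood apart. The sum of 8 immune markers was 45.1 CPM there and 3.27 to 5.44 CPM in the other 11 KP libraries, vehicle and CR1-31-b together. In that library Lyz2, the macrophage lysozyme, had 1854 counts and Ptprc, the leukocyte surface protein CD45, had 240, against 1 and 0 in the total library of the same lysate, while Cd3e of T cells had 0 counts and Adgre1 of macrophages 6. In all, 52 genes had over 100 counts and over 10 times the level of every other KP library in it, against 0 or 1 gene in each of the others, and 4 of the 52 were among the genes tested. Replicates 1 and 2 were sequenced on 1 run and replicate 3 on another, with both libraries of a lysate on the same run, so counts are also given without replicate 3 where it moved them.

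**Figure D1:**
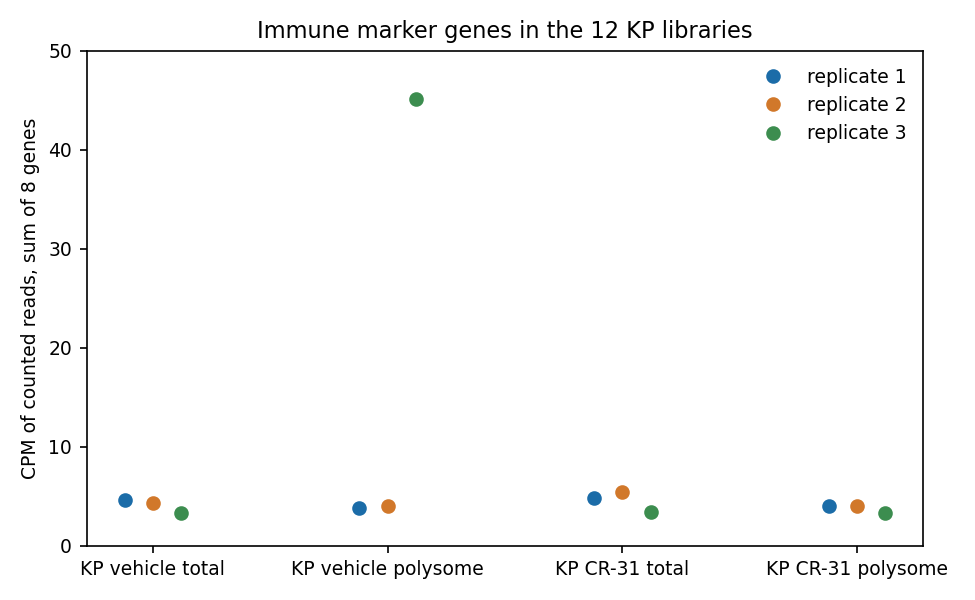
Summed level of 8 immune marker genes (CPM of counted reads, linear axis) in each of the 12 KP libraries, by group, with 1 point per replicate. The vehicle polysome library of replicate 3 is at 45.1 CPM and the other 11 libraries lie between 3.27 and 5.44 CPM.

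Of 11438 genes tested, 3427 (30%) were higher and 3367 (29.4%) lower in polysome-associated than in total mRNA (edgeR's quasi-likelihood test with the lysate as a block, Benjamini-Hochberg adjusted p under 0.25, the threshold of the study). The value given for each gene is the log2 ratio of its polysome to its total level, after TMM scaling. Its standard error (SE) comes from the edgeR fit of the 3 replicates. That fit shares spread across genes, so the SE is not the standard error of the 3 single ratios. Scaling sets the average mRNA to about 0, so a ratio says how an mRNA was loaded relative to the others, and the median over all genes was -0.01. Most ratios were small. The middle of the distribution ran from -0.25 at the 25th to 0.28 at the 75th percentile, and 203 genes were called with at least 2-fold more and 64 with at least 2-fold less mRNA in polysomes. The 3 polysome values lay apart from the 3 total values, with no overlap, for 2646 genes (23.1%). Without replicate 3, 2939 genes (25.7%) were higher and 2864 (25%) lower, and 5445 of the 6794 calls were kept. Without the block 735 and 408 genes were called. Fewer cells of a type and less RNA per cell cannot be told apart in such bulk libraries.

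The ferritin mRNAs and the other iron-regulated mRNAs are shown with their sequences, because their translation is known to be regulated through a short hairpin in the mRNA. Iron regulatory proteins bind this iron-responsive element (IRE) when iron is scarce, blocking initiation when it lies in the leader and protecting the mRNA when it lies in the 3′ UTR. Exons of GENCODE M21 on GRCm38 were searched on the mRNA strand for a stem with 5 base pairs, 1 unpaired C and the loop CAGTGN, written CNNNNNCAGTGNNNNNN with pairs, G with T included, required across the loop. Found sites are printed 5′ to 3′ with the loop in capitals, first 4 leader sites and then the 4 sites in the 3′ UTR of Tfrc.
Fth1: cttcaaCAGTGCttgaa
Ftl1: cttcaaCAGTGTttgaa
Slc40a1: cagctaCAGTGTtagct
Alas2: cgtcctCAGTGCagggc
Tfrc site 1: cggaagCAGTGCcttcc
Tfrc site 2: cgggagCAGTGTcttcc
Tfrc site 3: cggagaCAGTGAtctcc
Tfrc site 4: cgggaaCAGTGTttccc

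The site of Fth1 lies in its 5′ UTR at chr19:9982738-9982754 on the plus strand, that of Ftl1 in its 5′ UTR at chr7:45459785-45459801 on the minus strand, that of Slc40a1 in its 5′ UTR at chr1:45925471-45925487 on the minus strand, and that of Alas2 in its 5′ UTR at chrX:150547464-150547480 on the plus strand. The Tfrc sites lie in the 3′ UTR on the plus strand, at chr16:32631225-32631241, chr16:32631604-32631620, chr16:32631669-32631685 and chr16:32631716-32631732. Of 11263 tested genes with an annotated 5′ UTR, 12 (0.107%) held such a sequence there, of which 4 were lower and 2 higher in polysomes with a median ratio of -0.13. Of 11267 genes with a 3′ UTR, 72 (0.639%) held one there, of which 28 were lower and 9 higher with a median of -0.09. In each gene only the transcript with the longest coding sequence was searched, so sites in other transcripts are missed. The total of genes with a 5′ UTR counts a leader in any matched transcript. A match is a description of the letters, not a shown binding site.

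Ferritin heavy chain mRNA was clearly depleted from polysomes. Fth1, which encodes the iron-storing ferritin heavy chain, measured 1958, 2033 and 2602 CPM in total and 1102, 903 and 1540 CPM in polysome-associated mRNA of replicates 1, 2 and 3. All 3 polysome values were below all 3 total values, and the ratio was -0.92 ± 0.11 (SE, n = 3, edgeR adjusted p = 0.00081). Ftl1, the ferritin light chain, measured 10023, 7330 and 8509 CPM in total and 7043, 5537 and 7135 CPM in polysome-associated mRNA, a ratio of -0.39 ± 0.09 (edgeR adjusted p = 0.00941). All 3 of its polysome values were below all 3 total values too, but 78.9% of its 50-base windows also occur in other annotated transcripts, so its count is uncertain. Slc40a1, the iron exporter ferroportin, was named after its values were seen and had 20.1, 12.8 and 37.97 CPM in total and 13.4, 11.2 and 26.8 CPM in polysome-associated mRNA (ratio -0.43 ± 0.11, edgeR adjusted p = 0.0127). It was lower in polysomes in every replicate, though its groups overlap. These 3 mRNAs had the lowest ratios of the 12 with a leader match. Alas2, the enzyme that starts heme synthesis in red cell precursors, was named for its leader site, outside the rule for naming genes. It was at 0.35 and did not pass the test (edgeR adjusted p = 0.575). The 2 higher ones, also named after their values were seen, were Nfib, a transcription factor of the NFI family (1.20 ± 0.12), and Ppp1r1b, the phosphatase inhibitor DARPP-32 (0.57 ± 0.10).

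Tfrc, the transferrin receptor that imports iron, carries its sites behind the coding sequence and was on the other side of the average. It measured 27.7, 9.41 and 37.2 CPM in total and 29.1, 13.2 and 47.1 CPM in polysome-associated mRNA. The polysome value was higher within each replicate, with groups that overlap, and the ratio was 0.30 ± 0.10 (edgeR adjusted p = 0.0535), falling to -0.01 after a correction for GC content and length. Epas1, the hypoxia factor HIF-2α, held no match to the strict pattern in the transcript searched. It had 33.8, 25.9 and 27.7 CPM in total against 19.7, 13.04 and 19.4 CPM in polysome-associated mRNA (ratio -0.76 ± 0.11, edgeR adjusted p = 0.00157). In the list of 8 IRE mRNAs, 4 were lower, 1 was higher and the median was -0.25. Without replicate 3, 4 were lower and 2 higher, and 4 were lower and 0 higher after the correction for GC content and length. Slc11a2, an iron transporter, and Cdc14a, a phosphatase, did not pass the test at -0.11 and -0.07.

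**Figure D2:**
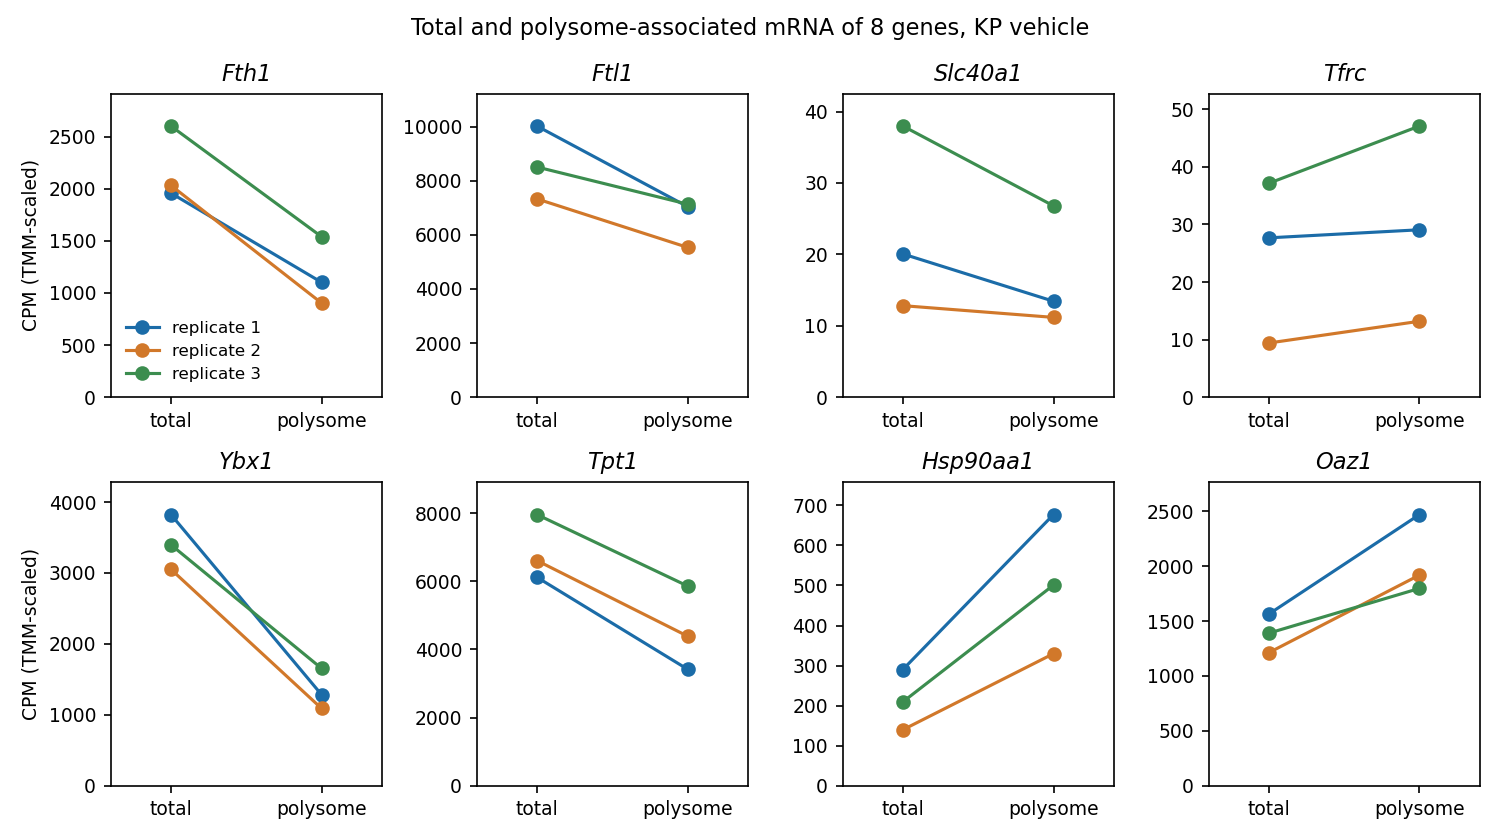
Total and polysome-associated mRNA (TMM-scaled CPM, linear axes from 0) of 8 genes in KP vehicle, with a line joining both libraries of each replicate. In all 3 replicates the lines fall for Fth1, Ftl1, Slc40a1, Ybx1 and Tpt1 and climb for Tfrc, Hsp90aa1 and Oaz1.

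The best and the most poorly loaded mRNAs were taken by 1 rule from both ends. Among genes with a mean of at least 10 CPM and the same direction in 3 of 3 replicates, Hmgn5, a protein that binds nucleosomes, had the highest ratio. Its level was 17.1, 4.38 and 13.9 CPM in total and 49.4, 15.1 and 43.998 CPM in polysome-associated mRNA (ratio 1.65 ± 0.10, edgeR adjusted p = 0.000139). Replicate 2 was low in both fractions, so the groups overlap although every replicate showed about the same gain. Ppig, a nuclear prolyl isomerase, had 30.3, 13.1 and 29.2 CPM in total and 80.1, 43.3 and 88.6 CPM in polysome-associated mRNA (1.57 ± 0.10, edgeR adjusted p = 0.000139). Esf1, a nucleolar protein of ribosomal RNA processing, had 10.3, 4.32 and 9.18 CPM against 25.05, 14.6 and 28.2 CPM (1.55 ± 0.12, edgeR adjusted p = 0.000251). For Ppig and Esf1 every polysome value was above every total value.

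The other genes of this group of 12 were Upf3b, a factor of nonsense-mediated decay (1.48), Mphosph8, a chromatin-silencing protein that binds methylated histone H3 (1.47), Smc6, a subunit of the SMC5/6 complex in DNA repair (1.45), Rock1, a kinase of the actin cytoskeleton (1.42), Trove2, the RNA-binding Ro protein (1.39), the zinc finger genes Zfp960 (1.54) and Zfp97 (1.52), and the predicted genes Gm5803 (1.53) and Gm14325 (1.42). Rock1 measured 23.3, 10.5 and 12.5 CPM in total and 52.7, 35.1 and 31.9 CPM in polysome-associated mRNA, with no overlap. The ratio of Gm5803 varied from 0.043 to 3.996 between replicates, with an SE of 0.55 (edgeR adjusted p = 0.0559). Zfp960, Zfp97 and Gm14325 share 74.0%, 73.4% and 81.7% of their 50-base windows with other transcripts, and their counts are uncertain. Fractions did not overlap for 10 of the 12 genes, against 23.1% of all tested genes, and all 12 were called without replicate 3. These genes were picked by their ratios in these libraries, so neither count is separate support. The 11 with a transcript of known sequence had a GC content of 37.6 to 42.6%, against a median of 50.7% over all tested genes, and after a correction for GC content and length all 11 were still higher, with ratios of 0.95 to 1.36.

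The most poorly loaded mRNA was that of Lars2, the mitochondrial leucyl-tRNA synthetase. It measured 979, 1717 and 601 CPM in total and 102, 295 and 164 CPM in polysome-associated mRNA, a ratio of -2.56 ± 0.22 (edgeR adjusted p = 0.000363). All 3 polysome values were below all 3 total values. Of its 3845 windows of 50 bases, 3 occur in another annotated transcript, Gm15564. Only exact matches were counted, and whether similar sequences added reads to Lars2 was not tested. Ybx1, a cold-shock protein that packages mRNA, measured 3824, 3052 and 3398 CPM in total and 1283, 1089 and 1654 CPM in polysome-associated mRNA (ratio -1.37 ± 0.12, edgeR adjusted p = 0.000376). Its fractions also lay far apart, and 25.1% of its windows are shared with other transcripts.

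The other 10 genes of the lowest group were Dennd5b, an activator of Rab proteins (-1.55), Tnks, the poly-ADP-ribose polymerase tankyrase (-1.20), Abhd2, a serine hydrolase (-1.15), Uhmk1, a kinase (-1.14), Creb3l2, a transcription factor anchored in the endoplasmic reticulum (-1.09), Scd3, a stearoyl-CoA desaturase (-1.09), Sorl1, a sorting receptor (-1.08), Ago2, the slicing subunit of small RNA complexes (-1.07), Fat1, a large cadherin (-1.06), and Foxo3, a forkhead transcription factor (-1.05). Ago2 measured 49.9, 52.5 and 36.8 CPM in total and 20.9, 31.0 and 16.002 CPM in polysome-associated mRNA, and Fat1 had 55.9, 68.7 and 55.6 against 30.05, 25.14 and 31.1 CPM. Neither overlapped between fractions. Dennd5b had 75.5, 12.5 and 57.5 CPM in total and 16.8, 9.63 and 14.7 CPM in polysome-associated mRNA, and its depletion was small in replicate 2 (-0.38). Tnks, Abhd2, Uhmk1 and Creb3l2 also were nearer to 0 in replicate 2, with Uhmk1 at -0.05. Fractions did not overlap for 8 of the 12 genes, against 23.1% of all tested genes. All 12 were called without replicate 3 and with the correction for GC content and length. These genes too were picked by their ratios in these libraries. Their 3′ UTRs had a median of 4526.5 bases (418 to 11064), against 950 for the best loaded genes and 962 for all tested genes.

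**Figure D3:**
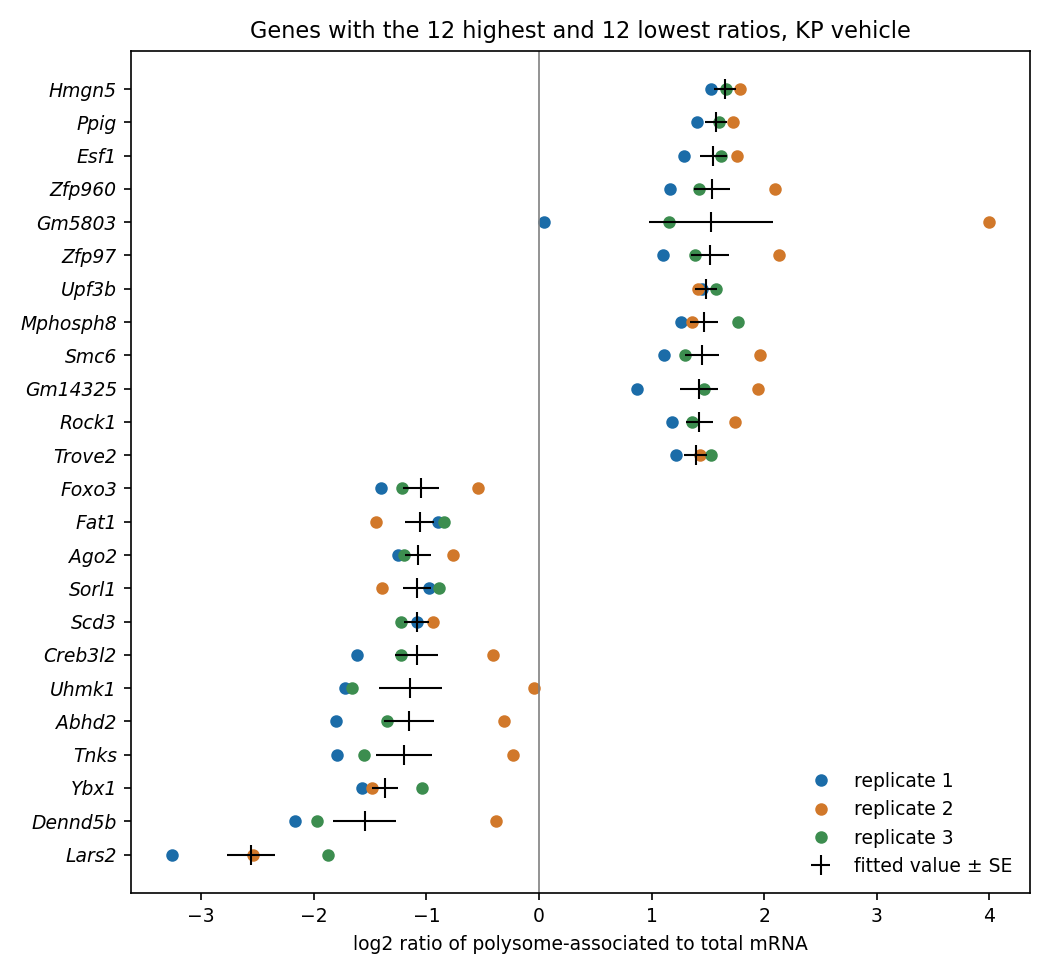
Log2 ratio of polysome-associated to total mRNA for the 12 genes with the highest and the 12 with the lowest ratio, with 1 coloured point per replicate and the fitted value ± SE in black. Lars2 lies lowest at -2.56 and Hmgn5 highest at 1.65, and the points of replicate 2 lie nearer to 0 than those of replicates 1 and 3 for Dennd5b, Tnks, Abhd2 and Uhmk1.

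Lists of genes with a common role are described by their counts, to be read against 30% higher and 29.4% lower among all tested genes with a median of -0.01. Cytosolic ribosomal proteins, the classical TOP mRNAs, were split. Of 76 tested, 20 were higher and 33 lower, with a median of -0.08 (17 and 29 without replicate 3). Rps4x, of the small subunit, measured 2652, 2855 and 3567 CPM in total and 1593, 1397 and 2154 CPM in polysome-associated mRNA (ratio -0.83 ± 0.10, edgeR adjusted p = 0.000887), and its fractions did not overlap. Other transcripts share 72.3% of the windows of Rps4x, 51.4% of those of Fau and 53.1% of those of Rpl41, so that these counts are uncertain. Rps24 had a ratio of -0.83, while Rpl41, the shortest protein of the large subunit, and Fau, which encodes a small-subunit protein fused to a ubiquitin-like domain, were higher by 0.43 and 0.42. After the correction for GC content and length Rpl41 and Fau were at 0.15 and -0.05 and no longer passed the test, and 9 ribosomal protein genes were higher and 33 lower. Among 25 other TOP mRNAs, 8 were higher and 7 lower (median 0.09, and -0.01 without replicate 3). The counts were 8 and 4 after the correction for GC content and length (median 0.01). Tpt1, the translationally controlled tumour protein, measured 6121, 6611 and 7962 CPM in total and 3420, 4391 and 5864 CPM in polysome-associated mRNA, lower in every replicate (-0.62 ± 0.10, edgeR adjusted p = 0.00212), with 41.96% of its windows shared with other transcripts. Subunits of the initiation factor eIF3 went both ways, with Eif3a at 0.86, Eif3k at 0.45 and Eif3l at -0.46.

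mRNAs of eIF4F and its regulators were near the average, with 2 higher and 4 lower of 13 (median -0.11, and 0.01 after the correction for GC content and length). Eif4ebp1 and Eif4ebp2 encode related repressors that keep eIF4E off the cap, and they differed in sign. Eif4ebp1 had 241, 288 and 199 CPM in total and 365, 420 and 288 CPM in polysome-associated mRNA (0.56 ± 0.09), whereas Eif4ebp2 had 126, 139 and 108 against 72.8, 107 and 74.4 CPM (-0.57 ± 0.10). Within each replicate Eif4ebp1 was higher and Eif4ebp2 lower in polysomes. Mknk2, a kinase of eIF4E, was higher by 0.26 (not called without replicate 2, at 0.18, and at -0.03 after the correction for GC content and length), and Eif4a1, the helicase itself, was lower at -0.35 (edgeR adjusted p = 0.0463) but not called without replicate 2 (-0.21), with 65% of its windows shared with other transcripts. Of 17 cytosolic aminoacyl-tRNA synthetases, which charge tRNAs, 4 were higher, led by Vars (0.38) and Eprs (0.38), and 5 lower, led by Iars (-0.41) and Tars (-0.37), with a median of -0.09. Without replicate 3 the counts were 3 and 7, with Eprs at 0.22 (edgeR adjusted p = 0.242). After the correction for GC content and length the counts were 3 and 6 with a median of 0.00, where Vars was at 0.08 and no longer passed the test.

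Among 14 mRNAs known for upstream open reading frames, which take ribosomes before the main start codon, 6 were higher and 5 lower (median 0.07). After the correction for GC content and length 4 were higher and 7 lower (median -0.15). Atf5, a transcription factor of the stress response, measured 92.8, 265 and 211 CPM in total and 144, 429 and 334 CPM in polysome-associated mRNA. The total levels differed widely between replicates but the gain was alike in each, with a ratio of 0.66 ± 0.09 (edgeR adjusted p = 0.00145). Uchl5, a deubiquitinase of the proteasome, was higher by 0.57, while Slc7a1, an importer of cationic amino acids (-0.61), and Ppp1r3e, a glycogen-targeting phosphatase subunit (-0.70), were lower.

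The polyamine pathway was the list with no lower member. Of 10 tested genes 7 were higher and 0 lower, with a median of 0.33, which was 0.41, 0.42 and 0.22 in replicates 1, 2 and 3. The same counts of 7 and 0 were found without replicate 3, and 6 and 1 with a median of 0.22 after the correction for GC content and length. Oaz1, the antizyme whose synthesis needs a ribosomal frameshift and which sends ornithine decarboxylase to the proteasome, measured 1564, 1212 and 1390 CPM in total and 2471, 1920 and 1798 CPM in polysome-associated mRNA. All 3 polysome values were above all 3 total values (0.56 ± 0.10, edgeR adjusted p = 0.00318), and 53.9% of its windows are shared with other transcripts. Azin2, an antizyme inhibitor, was higher by 0.65, and the catabolic enzymes Sat1 and Paox, which acetylate and oxidise polyamines, were higher by 0.26 and 0.30, Sat1 not being called without replicate 1 (0.18). Smox, which oxidises spermine, Oaz2, a further antizyme, and Srm, which makes spermidine, were higher by 0.51, 0.39 and 0.37. The 3 that did not pass the test were Odc1, the ornithine decarboxylase that starts the pathway (-0.15), the antizyme inhibitor Azin1 (0.04) and Sms, which makes spermine (0.01).

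Selenoproteins, which read a UGA codon as selenocysteine, had 8 higher and 5 lower of 17 and a median of 0.21 (0.39 without replicate 3, and 8 and 3 with a median of 0.12 after the correction for GC content and length), at 0.26, 0.43 and 0.04 in replicates 1, 2 and 3. Gpx1, a glutathione peroxidase, measured 472, 485 and 467 CPM in total and 782, 796 and 647 CPM in polysome-associated mRNA, without overlap (0.64 ± 0.10, edgeR adjusted p = 0.00207). Selm was higher by 0.75. Gpx1 and Selm were at 0.35 and 0.23 after the correction for GC content and length. Selk, a protein of the endoplasmic reticulum, was lower at -0.36. Replication-dependent histones, whose mRNAs end in a stem-loop instead of a poly(A) tail, had 22 higher and 3 lower of 51 (median 0.28, and 24 and 1 without replicate 3). Hist1h2ag, a histone H2A, had 254, 60.3 and 372 CPM in total and 806, 201 and 490 CPM in polysome-associated mRNA, with ratios of 1.66, 1.73 and 0.40 in the 3 replicates. Its fitted ratio was 1.27, and 0.68 after the correction for GC content and length, and 78.9% of its windows are shared with other transcripts, so its count is uncertain. After the correction for GC content and length 12 histones were higher and 10 lower (median 0.13). Both extremes of the list rested on replicate 3, where Hist1h2bn, a histone H2B, had 0.119 CPM in total against 8.62 CPM in polysomes and Hist1h1d, a linker histone, had 4.89 against 0.62 CPM. Without it the ratios of Hist1h2bn and Hist1h1d were 0.20 (edgeR adjusted p = 0.423) and -0.20 (edgeR adjusted p = 0.507).

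Nuclear-encoded subunits and assembly factors of oxidative phosphorylation were more often higher than lower, with 41 against 10 of 81 and a median of 0.20. The medians of the replicates were 0.42, 0.26 and -0.08, so replicate 3 did not share the shift, and without it 55 were higher and 6 lower with a median of 0.32. After the correction for GC content and length 32 were higher and 10 lower (median 0.11). Ndufb7, of complex I, measured 101, 106 and 103 CPM in total and 203, 190 and 146 CPM in polysome-associated mRNA, with no overlap (0.78 ± 0.11, edgeR adjusted p = 0.00165). Atp5j2, of the ATP synthase (0.70), and Uqcr11, of complex III (0.68), were higher, as was Ndufa3 of complex I (0.36). Sdhb, the iron-sulfur subunit of complex II, did not pass the test (132, 135 and 131 against 176, 190 and 103 CPM, ratio 0.20, edgeR adjusted p = 0.345), and without replicate 3 it did (0.45, edgeR adjusted p = 0.0168). The complex I assembly factors Ndufaf1 and Ndufaf7 were lower at -0.45 and -0.32. Mitochondrial ribosomal proteins had 27 higher and 15 lower of 69 with a median of 0.04, and 0.24, 0.07 and -0.12 in the replicates (31 and 11 with a median of 0.14 without replicate 3, and 21 and 17 with a median of 0.01 after the correction for GC content and length). Mrpl28 (0.75) and Mrpl20 (0.54) were at the upper end, and Mrps22 (-0.57) and Mrpl47 (-0.46) at the lower end. Genes of the mitochondrial genome were not among those tested.

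**Figure D4:**
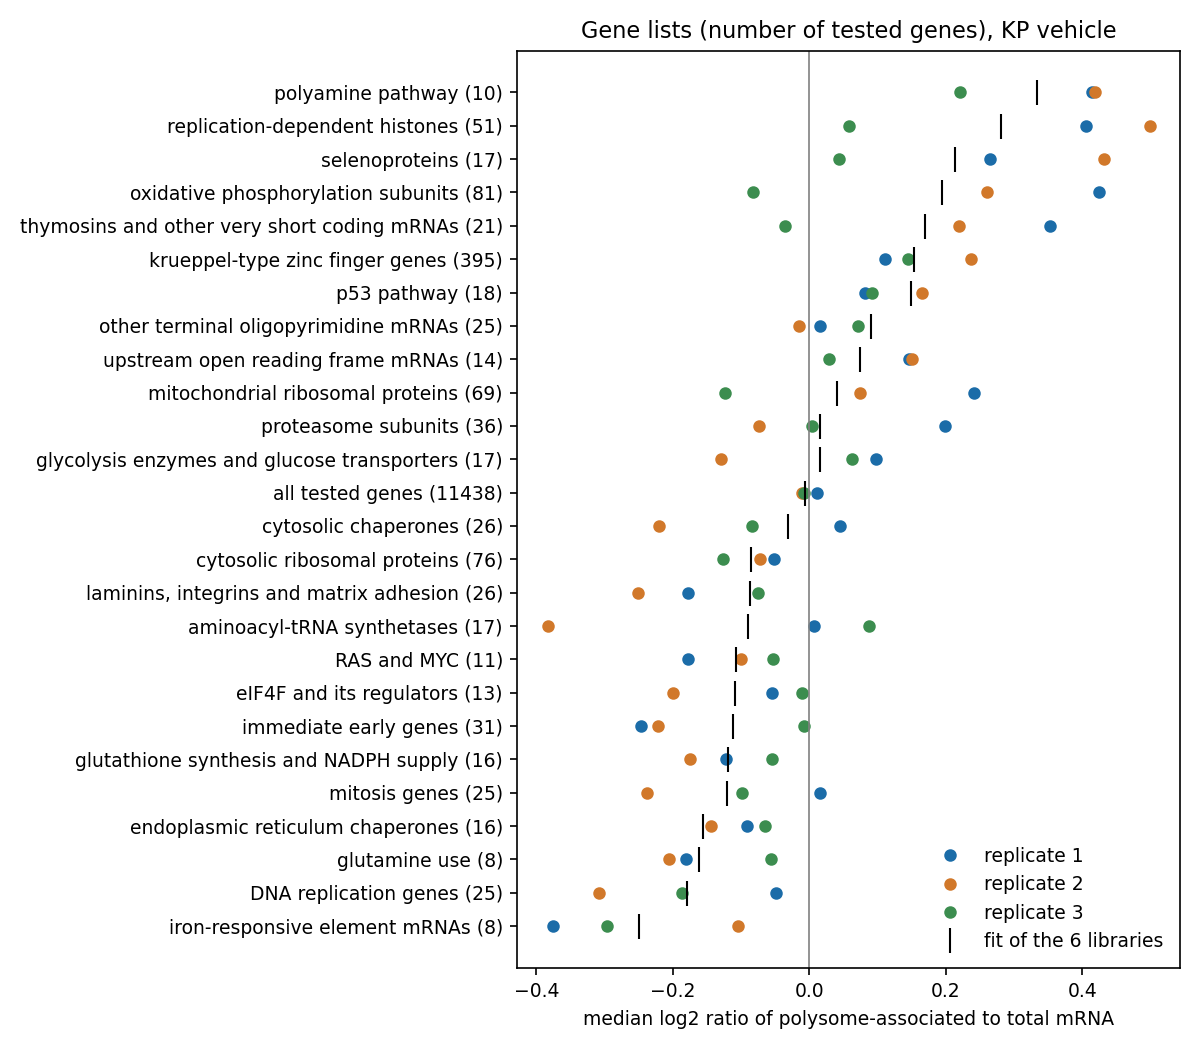
Median log2 ratio of polysome-associated to total mRNA in each gene list (number of tested genes in parentheses), with 1 coloured point per replicate and the fit of the 6 libraries in black. The polyamine pathway lies highest at 0.33 and IRE mRNAs lowest at -0.25, and replicate 3 lies at -0.08 for oxidative phosphorylation where replicates 1 and 2 are at 0.42 and 0.26.

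Cytosolic chaperones had 7 higher and 12 lower of 26 (median -0.03, 5 and 12 with a median of -0.06 without replicate 3, and 7 and 11 with a median of -0.08 after the correction for GC content and length). Hsp90aa1, the inducible cytosolic HSP90, measured 290, 140 and 209 CPM in total and 677, 330 and 501 CPM in polysome-associated mRNA. Its fractions did not overlap (1.24 ± 0.10, edgeR adjusted p = 0.000251), although 58.5% of its windows are shared with other transcripts. Hspa8, the constitutive HSC70, had 5125, 4541 and 4846 CPM in total and 3914, 3138 and 3983 CPM in polysome-associated mRNA and was lower at -0.40, as was Cct6a, a chaperonin subunit (-0.45). For Hspa8 73.2% of the windows and for Hspb1 58.9% are shared with other transcripts. Hspb1, a small heat shock protein, was higher by 0.31 but at -0.16 after the correction for GC content and length. In the endoplasmic reticulum list, 3 of 16 were higher and 7 lower (median -0.16), against 2 and 7 without replicate 3 and 2 and 4 after the correction for GC content and length (median -0.04). Hsp90b1, the HSP90 of that compartment, had 156, 92.3 and 152 CPM in total and 259, 178 and 291 CPM in polysome-associated mRNA, higher without overlap (0.87 ± 0.10, edgeR adjusted p = 0.000739). Pdia4, a disulfide isomerase, was lower at -0.56 and Calr, calreticulin, by -0.43. Proteasome subunits had 12 higher and 10 lower of 36 and a median of 0.02 (12 and 5 without replicate 3, and 8 and 11 after the correction for GC content and length), from Psmb9 (0.46) and Psmb6 (0.39) to Psma6 (-0.42) and Psmc2 (-0.41).

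Genes of the RAS and MYC list lay on both sides. Hras, a GTPase of growth factor signalling, had 178, 195 and 187 CPM in total and 266, 226 and 259 CPM in polysome-associated mRNA, higher without overlap (0.42 ± 0.10, edgeR adjusted p = 0.0135). Myc, the growth-promoting transcription factor, had 114, 159 and 137 CPM in total and 80.7, 110 and 107 CPM in polysome-associated mRNA, lower without overlap (-0.46 ± 0.09, edgeR adjusted p = 0.00513). Mxi1, which competes with Myc for its partner Max, was lower at -0.50. The list had 3 higher and 5 lower of 11 (median -0.11), against 3 and 6 without replicate 3 (median -0.22) and 2 and 4 after the correction for GC content and length. In the p53 list 8 were higher and 3 lower of 18 (median 0.15), but 4 and 4 after the correction for GC content and length (median 0.01) and 7 and 2 without replicate 3, with the death-promoting Bax and Pmaip1 both at 0.56 (0.16 and 0.41 after the correction for GC content and length) and Mdm2, which degrades p53, at -0.41. Immediate early genes, which growth factors induce within minutes, had 5 higher and 13 lower of 31 (median -0.11, and 4 and 16 with a median of -0.23 without replicate 3). Egr1, a zinc finger transcription factor, had 411, 119 and 102 CPM in total and 241, 83.2 and 69.7 CPM in polysome-associated mRNA, lower in each replicate (-0.61 ± 0.10), whereas Jund, an AP-1 subunit, was higher by 0.59 and Ier2 by 0.36. After the correction for GC content and length neither passed the test, with Jund at 0.05 and Ier2 at -0.05, and 1 gene of the list was higher and 15 lower (median -0.18). Egr2, a relative of Egr1, was lower at -0.84 with an edgeR adjusted p of 0.249 and a ratio near 0 without replicate 1.

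Cell cycle mRNAs split by gene. Mitosis genes had 9 higher and 10 lower of 25 (median -0.12, and 0.01 after the correction for GC content and length) and DNA replication genes 6 higher and 13 lower of 25 (median -0.18, 5 and 10 without replicate 3, and 6 and 9 with a median of -0.10 after the correction for GC content and length). Mki67, the Ki-67 protein that coats mitotic chromosomes, had 32.4, 4.02 and 25.003 CPM in total and 48.9, 12.8 and 39.6 CPM in polysome-associated mRNA, higher in each replicate although replicate 2 was low in both fractions (0.94 ± 0.18). The kinetochore motor Cenpe was higher by 1.03, and Rfc1, of the clamp loader, and Pola1, of DNA polymerase alpha, by 0.62 and 0.58. The mitotic kinase Aurkb (-0.45), Ccnb1, cyclin B1 (-0.43), the ribonucleotide reductase subunit Rrm2 (-0.56) and Pole, of DNA polymerase epsilon (-0.54), were lower. Other transcripts share 42.1% of the windows of Ccnb1.

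In metabolism, glycolysis enzymes and glucose transporters had 6 higher and 5 lower of 17 (median 0.02), 3 and 5 with a median of 0.01 without replicate 3, and 6 and 5 with a median of -0.08 after the correction for GC content and length. Gapdh, a central enzyme, had 1390.1, 1399.8 and 1166 CPM in total and 1488, 1459 and 1217 CPM in polysome-associated mRNA, a difference that did not pass the test (0.07, edgeR adjusted p = 0.562), and 90.4% of its windows and 67.96% of those of Pgk1 are shared with other transcripts. Hk2, hexokinase 2 (-0.55), Pgk1, phosphoglycerate kinase (-0.35), and Slc2a1, the glucose transporter GLUT1 (-0.25), were lower, Slc2a1 not being called without replicate 1 (-0.14). Slc2a6, a glucose transporter, had 0.0708, 0.0913 and 0.0915 CPM in total and 0.156, 0.101 and 1.76 CPM in polysome-associated mRNA, so that its ratio of 2.37 ± 0.71 (edgeR adjusted p = 0.0289) rested on replicate 3 and was 0.70 without it (edgeR adjusted p = 0.441). Eno2, an enolase, likewise was at 0.70 with replicate 3 and 0.02 without it, while Eno3 was higher by 0.41 but not called without replicate 1 (0.42) or replicate 2 (0.29). Glutathione synthesis and NADPH supply had 2 higher and 7 lower of 16 (median -0.12), and 2 and 4 with a median of -0.04 after the correction for GC content and length. The 2 higher ones were Slc7a11, the cystine importer (0.61), and Pgls, of the pentose phosphate pathway (0.79, and 0.20 after the correction for GC content and length), against G6pdx, the first enzyme of that pathway (-0.45), and Nqo1, a quinone reductase (-0.52). Nfe2l2, the transcription factor NRF2, was at -0.20 (edgeR adjusted p = 0.163), and was not called without replicate 2 (-0.14) or after the correction for GC content and length (-0.05). Of 8 genes of glutamine use none was higher and 4 were lower, which were Glud1, glutamate dehydrogenase (-0.49), the aminotransferases Got1 (-0.46) and Got2 (-0.27), and Glul, glutamine synthetase (-0.21, and 0.01 after the correction for GC content and length). The list had 1 higher and 3 lower after the correction for GC content and length, and its median went from -0.16 to -0.03. Glul was not called without replicate 1 or 2, nor Got2 without replicate 1 (-0.20). Slc1a5, the glutamine importer (0.04), did not pass the test.

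Laminins, integrins and other adhesion genes had 2 higher and 12 lower of 26 (median -0.09, and 1 and 14 with a median of -0.24 without replicate 3). Lamc1, the laminin gamma 1 chain of basement membrane, measured 103, 131 and 117 CPM in total and 61.5, 57.6 and 74.9 CPM in polysome-associated mRNA, with no overlap (-0.86 ± 0.12, edgeR adjusted p = 0.00133). Fn1, fibronectin, was lower at -0.72, and the integrins Itgb5 and Itga3, which bind matrix, were higher by 0.40 and 0.22. Itga3 was not called without replicate 3 (0.16, edgeR adjusted p = 0.398) or replicate 2 (0.15), nor after the correction for GC content and length (0.06, edgeR adjusted p = 0.629). The largest list, 395 zinc finger genes of the Krüppel type, had 178 higher (45.1%) and 84 lower (21.3%) and a median of 0.15, with 0.11, 0.24 and 0.14 in the replicates and 162 and 65 without replicate 3. Zfp40 had 0.425, 0.196 and 0.247 CPM in total and 1.67, 0.744 and 1.19 CPM in polysome-associated mRNA, higher without overlap (2.06 ± 0.26, edgeR adjusted p = 0.00105). Zfp677 was the highest of the list at 2.19 ± 0.69, from 25, 4 and 6 counts in total mRNA and ratios of -0.09, 3.69 and 3.78 in the replicates, and was at 1.38 without replicate 3. Zfp169 was the lowest at -0.93. Many of these genes have close relatives, and their counts can be uncertain.

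Coding length, GC content and the untranslated regions were read from the annotation for 11392 of the tested genes (99.6%), and the classes are descriptions, chosen after earlier results were seen. GC content divided the genes most, and both ends of the range were better loaded than the middle. Below 40% GC, 60.6% of 470 genes were higher and 9.57% lower, with a median ratio of 0.40. Between 45 and 50% GC, 9.73% of 2867 genes were higher and 48.7% lower, with a median of -0.19. At 60% GC and above, 70.3% of 619 genes were higher and 3.07% lower, with a median of 0.42. The medians kept these signs in each replicate, at 0.29, 0.68 and 0.29 for the lowest GC class and 0.40, 0.49 and 0.42 for the highest. What GC content moves with in these libraries was not tested. Of 133 named genes that were called and had a transcript of known sequence, 45 had a ratio smaller by more than 1.5 times, or of the other sign, after the correction for GC content and length, and 4 had one larger by more than 1.5 times. Among genes given above without that value, Atf5 was at 0.37, Oaz1 at 0.30, Azin2 at 0.34, Sat1 at 0.16, Ndufb7 at 0.34, Mrpl28 at 0.41, Uqcr11 at 0.27, Uchl5 at 0.23, Psmb6 at 0.16, Itgb5 at 0.23 and Ppp1r1b at 0.20. Among lower genes, Eif4a1 was at -0.21, Slc7a1 at -0.37, Hk2 at -0.35, Pgk1 at -0.20, Glud1 at -0.27, Iars at -0.17, Tars at -0.19, Psmc2 at -0.25, Hspa8 at -0.23, Calr at -0.24, Pole at -0.28, Mdm2 at -0.27 and Mxi1 at -0.30. All of these still passed the test, and the 4 larger values were -1.15 for Ppp1r3e, -0.74 for Ftl1, 0.54 for Paox and 0.59 for Eprs.

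Longer coding sequences had lower ratios in KP vehicle. The median was 0.17 below 100 codons (212 genes) and -0.20 at 1600 codons and above (503 genes). The difference between these classes was -0.58, -0.41 and -0.08 in replicates 1, 2 and 3, so that it was nearly absent in replicate 3. Among 21 mRNAs picked for very short coding sequences, 10 were higher and 2 lower (median 0.17), led by Uqcr11 and Polr2l, a shared RNA polymerase subunit (both 0.68), while Snrpg, of the spliceosome (-0.34), and Tmsb4x, the actin-binding thymosin beta 4 (-0.31), were lower but not called without replicate 3 (-0.18 and -0.15). Without replicate 3, 14 of the 21 were higher and 0 lower (median 0.26), and after the correction for GC content and length 8 were higher and 7 lower (median 0.08). GC content and length crossed, since mRNAs under 45% GC with 800 codons or more had a median of 0.43 (469 genes), those of 45 to 55% GC with 800 codons or more -0.30 (1293 genes), and those of 55% GC or more with under 200 codons 0.41 (376 genes). A 3′ UTR under 250 bases went with a median of 0.13 and one of 4000 bases or more with -0.07. The 5′ leader divided the genes hardly at all, and the medians of the classes of leader length, of the number of upstream ATG triplets and of the match of the start context (a purine 3 bases before and a G after the ATG) lay between -0.02 and 0.01 with the longest annotated leader of each gene, and between -0.02 and 0.03 with the shortest.

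**Figure D5:**
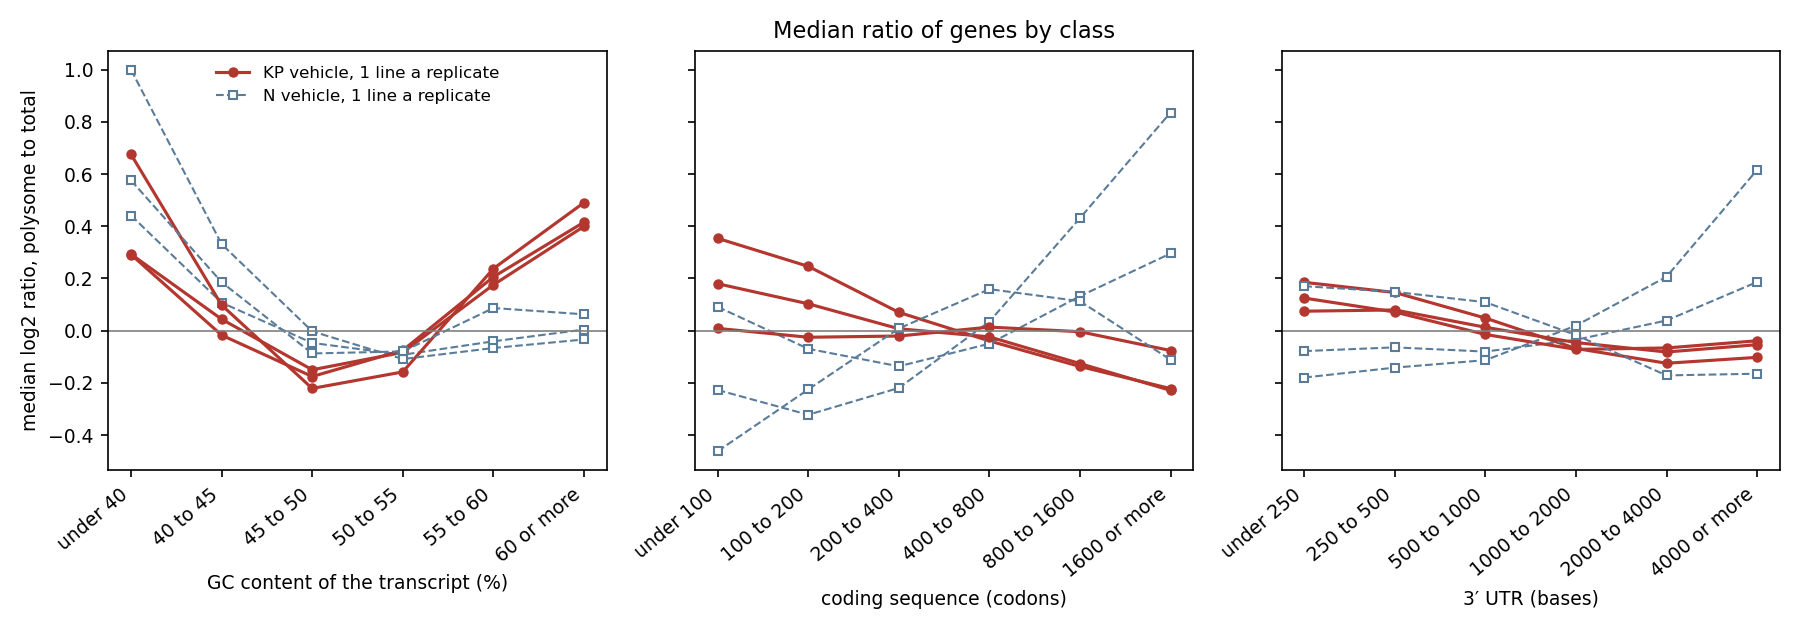
Median log2 ratio of polysome-associated to total mRNA of genes grouped by a feature of their transcript, with 1 line per replicate of KP vehicle (filled circles) and N vehicle (open squares). In KP vehicle the classes below 40% and at or above 60% GC are at 0.40 and 0.42 in the fit, and the median falls from 0.17 to -0.20 with coding length.

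In N vehicle 558 genes (4.88%) were higher and 18 (0.157%) lower in polysomes, and in KP with CR1-31-b 1259 (11%) were higher and 323 (2.82%) lower. The counts of calls depend on the spread between each group's replicates and do not rank the groups. The difference of the ratio between KP and N vehicle, tested as an interaction in edgeR, was called for 0 genes (0%), with a lowest adjusted p of 0.271 and 1747 genes at an unadjusted p under 0.05. Counts with other size factors were 0 as well, but without N replicate 3 the count was 5500, so this test rests on that replicate. Of the 12 best loaded mRNAs, 11 were called higher in N vehicle, with ratios from 1.56 (Gm14325) to 2.07, and 11 in KP with CR1-31-b. Gm5803, the gene not called in N vehicle, was at 0.77 there. Of the 12 most poorly loaded, 1, Ybx1, was called lower in N vehicle (-1.35, edgeR adjusted p = 0.111) and 9 in KP with CR1-31-b. Lars2 was at -2.14 in N vehicle without passing the test there (edgeR adjusted p = 0.384). Fth1 and Ftl1 were at -1.14 and -1.22 in N vehicle, and Lamc1 at 0.31.

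Differences between GC and length classes were also set beside those of N vehicle, in 4 comparisons of 3 against 3 replicates chosen after the values were seen, where an exact two-sided permutation test cannot go below p = 0.1. Genes of 60% GC or more exceeded those of 45 to 50% by 0.62 ± 0.08 (SD, n = 3) in KP vehicle and by 0.06 ± 0.09 in N vehicle (exact permutation p = 0.1, adjusted 0.2). Genes under 40% GC exceeded them by 0.60 ± 0.26 in KP and 0.72 ± 0.26 in N (exact permutation p = 0.5, adjusted 0.5). Coding sequences of 1600 codons or more differed from those under 100 by -0.36 ± 0.25 in KP and 0.54 ± 0.46 in N (exact permutation p = 0.1, adjusted 0.2). For 3′ UTRs of 4000 bases or more against under 250 the values were -0.19 ± 0.08 and 0.24 ± 0.57 (exact permutation p = 0.4, adjusted 0.5). No KP replicate overlapped with an N replicate for 60% GC or more or for coding length.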

How the data were processed

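The authors sequenced paired reads of TruSeq libraries, aligned them with HISAT2, discarded reads with several matches and deposited raw counts per gene and library, not normalized (the RPKM columns next to them were left unused). The submitters' processing notes also name SAMtools, with no versions. A human assembly is named in the methods although the genes listed are mouse RefSeq genes. Of 19895 entries, 11438 with 1 symbol and a count above 0 in all 24 libraries were tested. Entries with several symbols (1042) were left out. Counts were TMM-scaled and tested in edgeR 4.0.16 (R 4.3.3, limma 3.58.1) with the lysate as a block and Benjamini-Hochberg adjustment over all tested genes. DESeq2 1.42.0 was an alternative. A prior count of 0.5 entered the ratios of single replicates. Class summaries used Python 3.11.15 with numpy 2.4.6, pandas 2.3.3 and scipy 1.17.1, and plots matplotlib 3.10.9.

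The replicate number pairs both libraries of a lysate, as the study took them from the same lysate. Deviations of same-numbered libraries from their group means correlated across genes with r = 0.78, 0.75 and 0.78. No replicates agreed within sampling noise. Counts of this comparison were also simulated (11438 genes), with 200 of the genes changed. Of genes changed by 0.5 on the log2 scale 67% were called, and of those changed by 1 92%, with 23.6% of calls false. Far more genes were called in the data, so these shares need not hold there.

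The 24 genes at both ends were chosen among called genes with a mean of at least 10 CPM, the same direction in 3 of 3 replicates and a symbol that occurs once. In each of 26 gene lists (25 with tested members) the 2 called genes with the highest and the lowest ratios were named, and the tested genes that the study names for its polysome data. Genes outside this rule are named as such or come from the lists. Some genes that fall under the rule are not reported here. The comparison, its lists and classes were chosen with earlier results of these data known. Marker sums are in CPM of all counted reads and other CPM are TMM-scaled. Transcript features, sites and shared 50-base windows come from GENCODE M21 on GRCm38. The correction for GC content and length, chosen after seeing the data, was an offset in the same blocked fit. Other alternatives were RLE and upper-quartile size factors, other count filters, fits with 12 or 24 libraries, no block, an adjusted p under 0.05, and leaving out each replicate.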

Additional observations from a re-analysis of the deposited data

Results flagged for a closer look

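The summed immune markers stood at 45.1 CPM in the KP vehicle polysome library of replicate 3, above the 3.27 to 5.44 CPM of the other 11 KP libraries, in genes that mostly fell outside the test. The N libraries had 15.6 to 30.4 CPM. Vim, an intermediate filament of mesenchymal and immune cells, had 1967 counts there and Mpeg1, a pore-forming protein of macrophages, 1080, against at most 84 and 15 in any other KP library. Both were named after their values were seen. Their ratios of 3.44 (edgeR adjusted p = 0.0224) and 4.57 were 0.47 (edgeR adjusted p = 0.493) and -0.34 without replicate 3. For Csf1r, a macrophage receptor also named after its values were seen, the ratio was 1.03 with and -0.05 without it.

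In the list medians and the length difference given here, every replicate of KP vehicle lay on 1 side of 0 and every replicate of N vehicle on the other. The same held for the median of genes with 800 to 1600 codons, at -0.14, -0.13 and -0.0040 in KP vehicle and 0.13, 0.43 and 0.11 in N vehicle, a difference that was not tested. The selenoprotein median was 0.21 in KP vehicle, with 0.26, 0.43 and 0.04 in the replicates, and -0.04, -0.16 and -0.18 in N vehicle, and was 0.39 in KP vehicle without replicate 3 and 0.12 after the correction for GC content and length. The median of laminins, integrins and adhesion genes was -0.087 in KP vehicle, with -0.18, -0.25 and -0.08 in the replicates, and 0.21, 0.56 and 0.08 in N vehicle, and was -0.24 in KP vehicle without replicate 3. Genes of this list are long, with a median of 1186 codons against 461 over all tested genes. The differences of these list medians between organoid types were not tested. The difference between coding sequences of at least 1600 and under 100 codons was -0.36 in KP vehicle and 0.20, 1.06 and 0.35 in the replicates of N vehicle, with an exact permutation p of 0.1, the smallest that 3 against 3 can give.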

How the results depend on the processing

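The counts of higher and lower genes were within 1.5 times of 3427 and 3367 with RLE (3389 and 3415) or upper-quartile size factors (3199 and 3609), other filters, entries with several symbols, DESeq2 (3086 and 3071), the correction for GC content and length (2928 and 3026), and without single replicates (2860 to 2948 higher and 2846 to 3170 lower). They fell to 735 and 408 without the replicate block, to 2117 and 1771 at an adjusted p under 0.05, to 2275 higher in a fit of the 12 KP libraries, and to 1620 and 1526 in a fit of all 24. Without the block 0 genes passed 0.05. Of 135 called genes named, 55 kept their call without the block and 119 of 133 with the correction. The cause of these changes was not tested.

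With that correction the ratios of 6 named genes changed sign, to -0.051 for Fau, -0.031 for Mknk2, -0.0053 for Tfrc, -0.051 for Ier2, 0.010 for Glul and -0.16 for Hspb1. Leaving out 1 replicate gave -1.25 to 0.0041 for Egr2, -0.052 to 1.65 for Csf1r and -0.34 to 6.04 for Mpeg1. The length difference was -0.085 in replicate 3 alone. Leaving out 1 replicate, 0 to 5500 genes were called between KP and N, with 1, 2 and 5500 without N replicates 1, 2 and 3 and 0 without any KP replicate. List medians changed sign for 5 lists with the correction, 2 with upper-quartile factors, and 3, 1 and 1 without replicates 1, 2 and 3. Genes of few counts, such as Slc2a6 and Eno2, carry counting error.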
